A study of Homo sapiens with 6 samples.

Results

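The genes described here are 52 genes of DNA replication licensing and of the replication fork, chosen by name and grouped by the complex that their proteins form. All 52 were found among the 63140 genes of the deposited count table, and all 52 were among the 14386 genes with enough counts to be tested. They were compared between NOZ-R, a gallbladder cancer line made resistant to the nucleoside analogue gemcitabine through stepwise dose escalation, and NOZ, the established human line from which it was derived. Each line had 3 libraries of poly-A RNA. The labels give no drug exposure at harvest, and they do not say whether NOZ-R is a clone or a pool or whether replicates were separate cultures, so p-values here reflect library-to-library spread alone, which may be technical.

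Replication is licensed when the origin recognition complex, CDC6 and CDT1 load the ring-shaped MCM2-7 complex onto DNA, a step that geminin blocks outside its proper window. In S phase the DDK kinase, CDC7 with DBF4, prepares the loaded ring, and CDC45 and the GINS complex join it to form the active helicase. Polymerase alpha with primase starts each strand, polymerases epsilon and delta extend it on the PCNA clamp that RFC loads, and FEN1, DNA2 and LIG1 finish the Okazaki fragments. Gemcitabine is known to stall this process, as a chain-terminating nucleotide and as an inhibitor of ribonucleotide reductase.

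Many of these genes are textbook targets of the E2F transcription factors, so the promoters of 5 of them are shown as examples from both directions of change. The E2F words searched were TTTCCCGC, TTTCGCGC, TTTGCCGC and TTTGGCGC on both strands, where overlapping matches were counted separately. In RefSeq promoters of build GRCh38.p14, from 250 bases before to 50 bases after the start, 47 of the 52 genes were matched. Of these, 20 (42.6%) held at least 1 E2F word, against 5.36% of the 10497 tested genes with a promoter and 3.31% of all 35116 promoters. The word was found in 9 of 15 genes that were higher in NOZ-R, in 6 of 14 that were lower and in 5 of 18 that did not pass the test. All 4 matched genes of the MCM2-7 complex held it. A match is a word in the sequence and not a measured binding site.

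Below, the stretch from 200 bases before to 10 bases after the start is given 5′ to 3′ along each gene's strand, with E2F words in capitals. The first 3 are helicase subunits, MCM6 (chr2:135876434-135876643, minus strand) and MCM3 (chr6:52284733-52284942, minus strand), which were higher in NOZ-R, and MCM7 (chr7:100101388-100101597, minus strand), which was lower. ORC5 (chr7:104208004-104208213, minus strand) and POLA1 (chrX:24693718-24693927, plus strand) were among the largest decreases, ORC5 with no E2F word and POLA1 with 1.
MCM6: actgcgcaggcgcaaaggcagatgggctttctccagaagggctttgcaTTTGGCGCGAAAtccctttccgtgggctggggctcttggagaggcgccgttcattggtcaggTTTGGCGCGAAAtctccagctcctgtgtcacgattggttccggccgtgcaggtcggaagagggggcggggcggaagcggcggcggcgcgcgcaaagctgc
MCM3: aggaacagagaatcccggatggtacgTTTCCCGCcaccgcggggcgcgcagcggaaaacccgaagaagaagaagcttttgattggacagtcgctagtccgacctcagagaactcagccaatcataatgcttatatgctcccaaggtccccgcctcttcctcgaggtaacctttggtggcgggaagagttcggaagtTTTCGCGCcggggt
MCM7: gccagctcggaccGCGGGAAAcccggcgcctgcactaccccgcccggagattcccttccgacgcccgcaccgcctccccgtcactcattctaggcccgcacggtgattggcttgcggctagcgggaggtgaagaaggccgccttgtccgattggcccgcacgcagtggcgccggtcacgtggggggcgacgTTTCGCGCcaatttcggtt
ORC5: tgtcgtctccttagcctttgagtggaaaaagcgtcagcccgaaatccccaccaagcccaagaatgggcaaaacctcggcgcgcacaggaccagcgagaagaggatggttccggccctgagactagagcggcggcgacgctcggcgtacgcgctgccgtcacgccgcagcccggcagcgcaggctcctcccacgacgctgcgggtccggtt
POLA1: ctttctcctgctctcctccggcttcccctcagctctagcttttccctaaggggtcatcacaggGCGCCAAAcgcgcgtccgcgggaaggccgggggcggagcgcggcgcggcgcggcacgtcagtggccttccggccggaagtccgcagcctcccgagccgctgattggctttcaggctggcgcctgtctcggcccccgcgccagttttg
MCM6 held 4 words in 2 stretches, MCM3 and MCM7 held 2 words each, and MCM7 moved in the opposite direction to MCM6 and MCM3.

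The total count per library was 15661532 to 18855409 in NOZ-R and 14136037 to 19244923 in NOZ, and the 52 genes together took 60332 to 82191 counts in each library. Levels are given as CPM, counts scaled to the library size after TMM, a normalization that sets the bulk of genes equal between libraries. Epithelial keratins and EPCAM summed to 3221 to 3316 CPM in NOZ-R and 2287 to 2765 CPM in NOZ, but they did not move together. KRT7, KRT18 and KRT8 were higher in NOZ-R, at log2 fold changes of 1.08, 0.64 and 0.25. EPCAM was lower at -0.56 (adjusted p of 0.000149 by edgeR), and KRT19, at -0.06, was not called. The 6 fibroblast markers summed to 3.09 to 4.22 CPM in NOZ-R and 2.74 to 3.32 CPM in NOZ, with COL1A2, DCN, LUM and THY1 at 0 counts in every NOZ library and DCN at 19, 12 and 6 counts in NOZ-R. The 8 leukocyte and endothelial markers summed to 14.1 to 16.8 CPM in NOZ-R and 9.79 to 17.3 CPM in NOZ. PECAM1 measured 9.20 CPM in NOZ-R and 1.865 CPM in NOZ, and CD79A measured 2.20 CPM in NOZ-R and 7.30 CPM in NOZ. The part of these markers in the results was not tested. NOZ replicate 2 stood apart in base composition, since its deviations from the NOZ mean had a rank correlation with transcript GC content of -0.502 across genes, against 0.316 and 0.371 in NOZ replicates 1 and 3. Leaving it out gave 16 higher and 17 lower genes among the 52.

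Setting NOZ-R against NOZ asked how transcripts of the replication machinery stand in the resistant line beside its parent. The summed level of the 52 genes was 4054 CPM ± 25.9 in NOZ-R and 4061 CPM ± 65.3 in NOZ (SD, n = 3 each), a difference of -0.182% (exact permutation p = 0.8, two-sided, where 0.1 is the smallest p that 3 against 3 libraries can give). Within that sum, 17 genes rose in NOZ-R, 17 fell and 18 were not called (edgeR's quasi-likelihood test, Benjamini-Hochberg adjusted p below 0.05 over all genes). The 34 called genes made up 65.4% of the 52, beside 60.2% called among all tested genes, of which 30.4% were higher and 29.8% lower. The share of replication genes called was thus close to that of the transcriptome. Their changes were small: the median absolute log2 fold change was 0.30, against 0.39 over all tested genes, and the median was -0.02 against -0.01. The tested genes were not matched to the 52 for expression level, and some had larger standard errors than any of the 52.

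Of the 52 genes, 6 were higher with a log2 fold change of at least 0.5 (11.5%, beside 17.7% of all tested genes) and 8 were lower by as much (15.4%, beside 18.7%), together beside 36.3% of all tested genes in either direction. The 3 libraries of each line did not overlap for 40 of the 52 genes (76.9%), beside 65.3% of all tested genes. NOZ-R lay above in 19 of them, beside 32.9% of all tested genes, and below in 21, beside 32.4%. Tested against a 1.2-fold change with edgeR, 8 of the 52 were higher, beside 20.1% of all tested genes, and 11 lower, beside 20.4%. Scaling by library size alone shifted the median log2 fold change of all genes by -0.129 and gave 13 higher and 25 lower of the 52 genes, and 3318 higher and 5465 lower of all genes. In bulk RNA, fewer cells in S phase and less of a transcript per cell cannot be told apart.

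**Figure D1:**
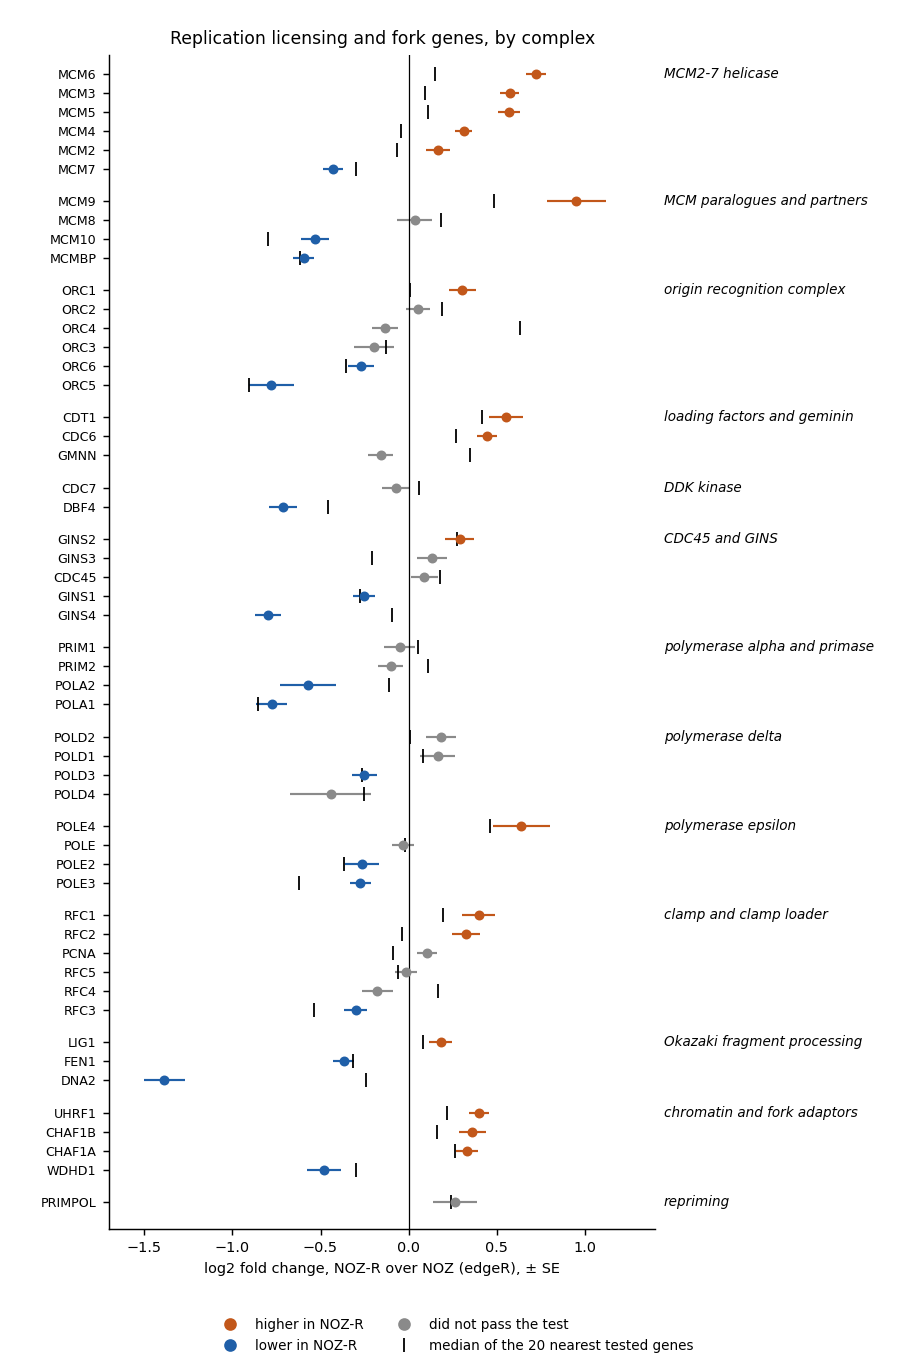
Log2 fold change of NOZ-R over NOZ (horizontal axis) for each of the 52 genes, grouped by complex; bars are the standard error from edgeR, n = 3 libraries per line, and black ticks mark the median of the 20 nearest tested genes on the chromosome. Subunits of several complexes lie on both sides of 0, and DNA2, at -1.39, lies furthest from it.

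The MCM2-7 complex is the replicative helicase that is loaded at origins. Of its 6 genes, 5 were higher in NOZ-R (83.3%, beside 30.4% of all tested genes) and 1, MCM7, was lower (16.7%, beside 29.8%). MCM6 had 118.5, 123.1 and 120.3 CPM in the NOZ-R libraries, against 72.8, 72.8 and 73.5 CPM in the NOZ libraries, which put the log2 fold change at 0.72 (SE 0.0572, with an adjusted p of 1.34e-07 by edgeR). The NOZ-R libraries lay well above the NOZ libraries, and each line was tight around its mean. MCM3 had 295.1, 285.4 and 273.6 CPM in NOZ-R and 191.5, 185.5 and 196.3 CPM in NOZ, which put the log2 fold change at 0.58 (SE 0.0540, with an adjusted p of 7.48e-07 by edgeR).

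MCM5 had 117.2, 124.2 and 116.1 CPM in NOZ-R and 82.4, 76.6 and 81.7 CPM in NOZ, which put the log2 fold change at 0.57 (SE 0.0613, with an adjusted p of 2.68e-06 by edgeR). MCM4 rose by less, to 323.0 CPM ± 1.48 in NOZ-R, against 259.9 CPM ± 1.119 in NOZ (SD, n = 3 each), for a log2 fold change of 0.31. For MCM2, 162.9 CPM ± 3.36 in NOZ-R stood against 144.9 CPM ± 13.6 in NOZ (SD, n = 3 each), for a log2 fold change of 0.17 (adjusted p of 0.0486 by edgeR). The MCM2 call was lost in 13 of 18 alternative settings, among them leaving out any NOZ-R library or NOZ replicate 2. Exons of MCM2 share 23.6% of their bases with genes on the opposite strand, from which its counts cannot be separated if strand was not kept.

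MCM7 went the other way. It had 359.5, 352.1 and 351.3 CPM in NOZ-R, against 501.2, 435.6 and 495.0 CPM in NOZ, which put the log2 fold change at -0.43 (SE 0.0587, with an adjusted p of 2.58e-05 by edgeR). Every NOZ-R library lay below every NOZ library, and the call held in all 18 settings, as did those of MCM3, MCM5 and MCM6. MCM7 lies on chromosome 7, where tested genes outside the 52 had a median of -0.29, and its 20 nearest tested genes had a median of -0.30, so it was 0.14 below its chromosome and 0.13 below its neighbours. The subunits assemble one to one, so their transcript levels per length were also set side by side, as CPM per kilobase of the gene length that the deposited FPKM values imply. Of the summed level of the complex, MCM7 took 27.4% ± 0.198 in NOZ-R and 41.2% ± 1.07 in NOZ (SD, n = 3 each).

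MCM3 took 29.9% ± 0.756 of that sum in NOZ-R and 22.5% ± 0.658 in NOZ, and MCM6 took 11.2% ± 0.284 in NOZ-R and 7.58% ± 0.378 in NOZ (SD, n = 3 each). MCM5 had the smallest share in both lines, 6.28% ± 0.225 in NOZ-R and 4.73% ± 0.0607 in NOZ (SD, n = 3 each). That rank depends on the implied gene length, 7268 bases for MCM5 and 4135 for MCM6. Without division by length, MCM5 and MCM6 measured 119.2 and 120.7 CPM in NOZ-R, and 80.2 and 73.0 CPM in NOZ. MCM2 took 12.7% in both lines, with a difference of 0.07 percentage points. Per kilobase, and so dependent on the same lengths, the ratio of the highest to the lowest subunit was 4.76 in NOZ-R and 8.72 in NOZ. The summed level per kilobase was 261.1 ± 3.34 in NOZ-R and 233.3 ± 11.9 in NOZ (SD, n = 3 each, exact permutation p = 0.1). Over the 33 subunit shares of 7 complexes that were compared, the smallest possible p of 0.1 gave an adjusted p of 0.138, so no share could pass.

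**Figure D2:**
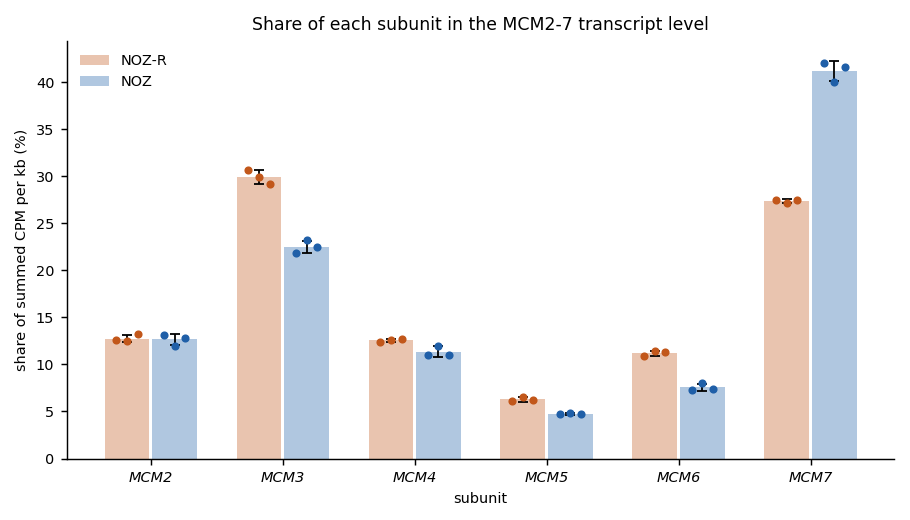
Share of each subunit in the summed level of MCM2 to MCM7 per library (vertical axis, percent of summed CPM per kilobase); bars are means, error bars the SD and points the 3 libraries of each line, with NOZ-R left of NOZ. MCM7 took 27.4% in NOZ-R and 41.2% in NOZ, while MCM3 took 29.9% in NOZ-R and 22.5% in NOZ.

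The paralogues and partners of the helicase split as well. MCM9, which works with MCM8 as a helicase in recombination repair, was the largest increase among the 52 genes. It had 11.2, 12.2 and 8.57 CPM in NOZ-R, against 6.63, 5.20 and 4.53 CPM in NOZ, which put the log2 fold change at 0.95 (SE 0.168, with an adjusted p of 0.00025 by edgeR). The lines did not overlap, although the level was low and the spread wide. Its partner MCM8 measured 21.6 CPM ± 0.747 in NOZ-R and 21.1 CPM ± 2.54 in NOZ (SD, n = 3 each), with a log2 fold change of 0.03 whose 95% interval ran from -0.18 to 0.25.

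MCM10, which helps to activate the loaded helicase, had 39.5, 44.2 and 40.3 CPM in NOZ-R and 56.5, 65.8 and 56.9 CPM in NOZ, which put the log2 fold change at -0.53 (SE 0.0809, with an adjusted p of 6.86e-05 by edgeR). MCMBP, a binding protein of newly made MCM subunits, had 139.1, 145.1 and 133.0 CPM in NOZ-R and 223.2, 201.0 and 206.5 CPM in NOZ. Its log2 fold change was -0.60 (SE 0.0607, with an adjusted p of 1.64e-06 by edgeR). Both genes lie on chromosome 10, where tested genes outside the 52 had a median log2 fold change of -0.60. Neither gene was lower than its chromosome, with differences of 0.07 for MCM10 and 0.0050 for MCMBP.

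The origin recognition complex marks origins and opens the loading of the helicase. Among its 6 genes, 1 rose (16.7%), 2 fell (33.3%) and 3 stayed uncalled, beside 30.4% higher and 29.8% lower of all tested genes. ORC1, its largest subunit and an ATPase, had 54.4, 53.1 and 48.7 CPM in NOZ-R and 43.1, 39.1 and 44.4 CPM in NOZ, which put the log2 fold change at 0.31 (SE 0.0765, with an adjusted p of 0.00353 by edgeR), although it was not called in 4 of 18 settings. ORC5 had 14.5, 10.7 and 10.7 CPM in NOZ-R and 19.6, 23.0 and 19.2 CPM in NOZ, which put the log2 fold change at -0.78 (SE 0.127, with an adjusted p of 0.000129 by edgeR). All NOZ-R libraries were below all NOZ libraries for ORC5, and for ORC1 the order was the reverse.

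ORC6 was lower by a log2 fold change of -0.27 (adjusted p of 0.0055 by edgeR). ORC2, ORC3 and ORC4 had log2 fold changes of 0.05, -0.20 and -0.13, with 95% intervals from -0.10 to 0.20, from -0.44 to 0.05 and from -0.29 to 0.02. Per length, ORC1 took 30.3% ± 1.501 of the complex's summed level in NOZ-R and 23.3% ± 2.46 in NOZ, and ORC5 took 5.81% ± 0.918 in NOZ-R and 9.49% ± 0.550 in NOZ (SD, n = 3 each). ORC5 was the lowest of the 6 subunits in both lines.

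Both loading factors, CDT1 and CDC6, were higher in NOZ-R, and the geminin gene was not called. CDT1 had 54.3, 57.1 and 55.8 CPM in NOZ-R and 41.5, 31.6 and 40.9 CPM in NOZ, which put the log2 fold change at 0.55 (SE 0.0953, with an adjusted p of 0.000204 by edgeR). CDC6 had 114.0, 116.6 and 120.1 CPM in NOZ-R and 84.0, 84.2 and 89.4 CPM in NOZ, which put the log2 fold change at 0.45 (SE 0.0593, with an adjusted p of 2.07e-05 by edgeR). The lines did not overlap for either gene, and both calls held in all 18 settings. GMNN, which encodes geminin, the inhibitor of CDT1, measured 43.7 CPM ± 1.76 in NOZ-R and 48.7 CPM ± 1.92 in NOZ (SD, n = 3 each), and its log2 fold change of -0.16 missed the threshold (adjusted p of 0.0678 by edgeR), although it passed in 4 of 18 settings.

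The DDK kinase was lower in its regulatory subunit. DBF4, which activates CDC7, had 51.3, 56.4 and 60.6 CPM in NOZ-R and 85.2, 100.9 and 89.3 CPM in NOZ, which put the log2 fold change at -0.71 (SE 0.0813, with an adjusted p of 4.81e-06 by edgeR). The kinase gene CDC7 itself measured 28.2 CPM ± 0.957 in NOZ-R and 29.7 CPM ± 0.931 in NOZ (SD, n = 3 each), for a log2 fold change of -0.07 with a 95% interval from -0.24 to 0.09.

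**Figure D3:**
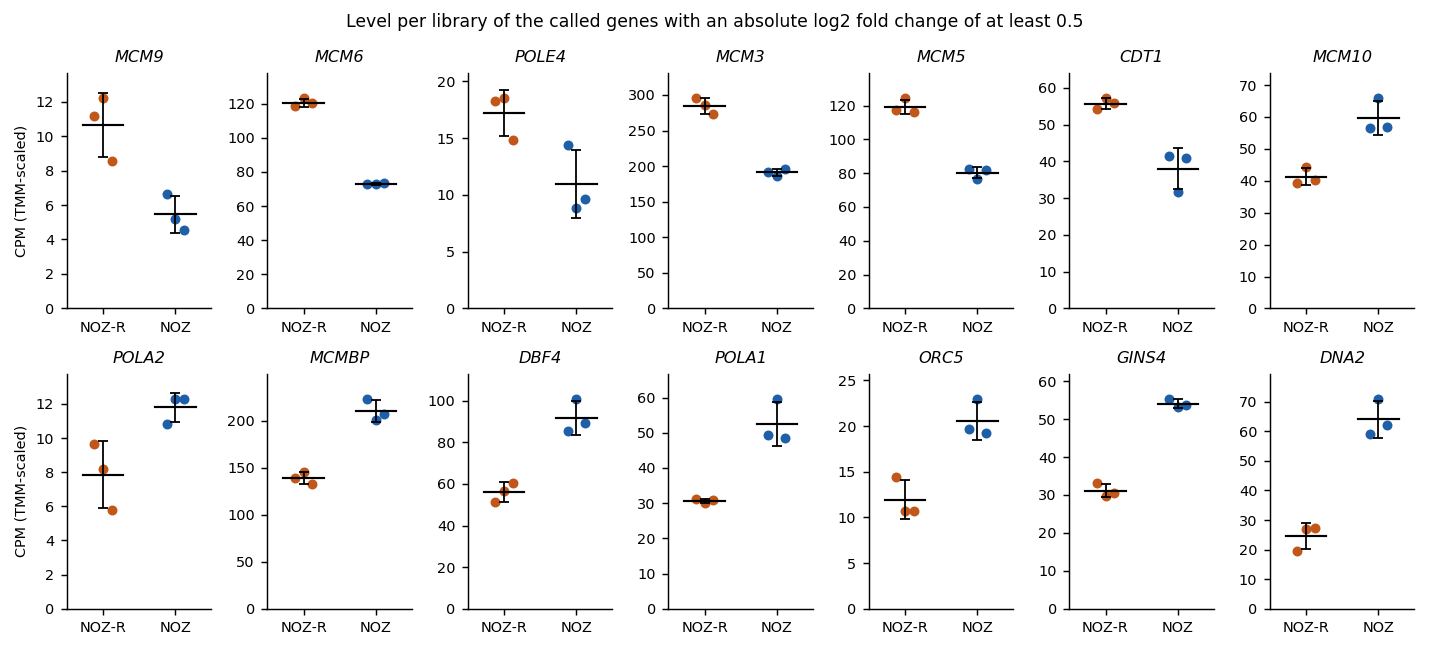
CPM per library (vertical axis, TMM-scaled, each panel from 0) of the 14 called genes with an absolute log2 fold change of at least 0.5, with NOZ-R left of NOZ; points are the 3 libraries of each line, horizontal lines the mean and error bars the SD. The choice of genes favours separate lines, and the libraries do not overlap in any of the 14 panels, beside 65.3% of all tested genes without overlap. Panels run from MCM9 with means of 10.6 CPM in NOZ-R and 5.45 CPM in NOZ to DNA2 with 24.6 CPM in NOZ-R and 64.0 CPM in NOZ.

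CDC45 and the GINS complex turn the loaded ring into the moving helicase. GINS4 had 33.1, 29.8 and 30.4 CPM in NOZ-R and 55.4, 53.2 and 53.7 CPM in NOZ, which put the log2 fold change at -0.80 (SE 0.0726, with an adjusted p of 5.45e-07 by edgeR). GINS1 was lower by a log2 fold change of -0.25 (adjusted p of 0.00251 by edgeR). GINS2 was higher, with 42.4, 39.1 and 44.6 CPM in NOZ-R and 35.9, 31.7 and 35.6 CPM in NOZ, which put the log2 fold change at 0.29 (SE 0.0815, with an adjusted p of 0.00732 by edgeR). GINS3, at 0.13, and CDC45, at 0.09, did not pass. The calls of the GINS genes ran in both directions, but GINS2, the higher one, was not called in 4 of 18 settings (library size alone, limma at both pseudocounts and the test against a 1.2-fold change) and lay 0.014 above its neighbours.

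The share of GINS4 in the GINS sum per length was 16.2% ± 0.591 in NOZ-R and 26.0% ± 0.875 in NOZ, and that of GINS2 was 37.15% ± 1.78 in NOZ-R and 27.9% ± 0.692 in NOZ (SD, n = 3 each). Exons of GINS4 share 23.6% of their bases with transcripts on the opposite strand, and its counts are uncertain if strand was not kept. GINS4 lies on chromosome 8, where tested genes outside the 52 had a median of 0.085, and the 20 tested genes nearest to it had a median of -0.09.

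Both polymerase alpha genes were lower, and neither primase gene passed the test. POLA1, the catalytic subunit, had 31.2, 30.0 and 30.8 CPM in NOZ-R and 49.5, 59.7 and 48.4 CPM in NOZ, which put the log2 fold change at -0.78 (SE 0.0880, with an adjusted p of 4.44e-06 by edgeR). POLA2, its accessory subunit, had 9.66, 8.16 and 5.76 CPM in NOZ-R and 10.8, 12.3 and 12.3 CPM in NOZ, which put the log2 fold change at -0.57 (SE 0.158, with an adjusted p of 0.00677 by edgeR). POLA2 shares 35.1% of its exon bases with another transcript on its own strand, which makes its counts uncertain. The primase genes PRIM1 and PRIM2 had log2 fold changes of -0.05 and -0.10, with 95% intervals from -0.24 to 0.13 and from -0.26 to 0.05. By library size alone and with limma at both pseudocounts, PRIM2, CDC7, ORC4, RFC4 and POLD4 were called lower. Exons of PRIM1 overlap another gene on the same strand over 16.2% of their bases.

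For polymerase delta, which extends the lagging strand, 1 of 4 genes was called (25%), beside 60.2% of all tested genes. POLD3 had 38.2, 38.3 and 38.2 CPM in NOZ-R and 44.4, 47.6 and 44.4 CPM in NOZ, which put the log2 fold change at -0.25 (SE 0.0698, with an adjusted p of 0.00693 by edgeR). The catalytic gene POLD1 and the accessory gene POLD2 had log2 fold changes of 0.17 and 0.18 that did not pass (adjusted p of 0.165 and 0.0716 by edgeR). With 1 library left out, POLD1 ran from 0.05 to 0.28 and passed without NOZ replicate 3, and POLD2 ran from 0.09 to 0.25 and passed without NOZ replicate 1 or 3. POLD4, the smallest subunit, was near the limit of what could be measured, at 1.94 CPM ± 0.469 in NOZ-R and 2.62 CPM ± 0.0746 in NOZ (SD, n = 3 each).

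Polymerase epsilon, the leading strand enzyme, had a catalytic transcript that did not pass the test. POLE measured 96.3 CPM ± 1.79 in NOZ-R and 98.5 CPM ± 5.63 in NOZ (SD, n = 3 each), for a log2 fold change of -0.03 with a 95% interval from -0.17 to 0.10. Its histone-fold subunits POLE3 and POLE4, which pair with each other, went in opposite directions. POLE4 had 18.3, 18.5 and 14.9 CPM in NOZ-R and 14.4, 8.85 and 9.67 CPM in NOZ, which put the log2 fold change at 0.64 (SE 0.161, with an adjusted p of 0.00369 by edgeR).

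POLE3 had 126.4, 130.8 and 115.9 CPM in NOZ-R and 154.9, 144.9 and 151.2 CPM in NOZ, which put the log2 fold change at -0.27 (SE 0.0621, with an adjusted p of 0.00179 by edgeR). For POLE4 the lowest NOZ-R library was just above the highest NOZ library, whereas for POLE3 the gap between the lines was wider. POLE2 had a log2 fold change of -0.26 (adjusted p of 0.0283 by edgeR), which was not called in 8 of 18 settings, among them without NOZ-R replicate 1 or 2 or without NOZ replicate 1. POLE3 lies on chromosome 9, whose tested genes outside the 52 had a median of -0.64, so it stood 0.36 above its chromosome.

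PCNA, the sliding clamp and the most abundant of the 52 transcripts per length, did not pass. It had 226.7, 237.7 and 227.6 CPM in NOZ-R and 218.0, 201.3 and 223.2 CPM in NOZ, a log2 fold change of 0.11 with a 95% interval from -0.02 to 0.23 (adjusted p of 0.119 by edgeR). The clamp loader genes split again. RFC1, the large subunit, had 109.9, 118.0 and 131.7 CPM in NOZ-R and 88.9, 104.3 and 79.4 CPM in NOZ, which put the log2 fold change at 0.40 (SE 0.0934, with an adjusted p of 0.00231 by edgeR), and RFC2 was higher by a log2 fold change of 0.33 (adjusted p of 0.00256 by edgeR). RFC3 had 90.5, 99.9 and 90.3 CPM in NOZ-R and 111.1, 119.3 and 115.5 CPM in NOZ, which put the log2 fold change at -0.30 (SE 0.0636, with an adjusted p of 0.00105 by edgeR). The RFC1 and RFC2 calls failed in 3 of 18 settings each, with limma at both pseudocounts and in the test against a 1.2-fold change. RFC4 and RFC5, at -0.18 and -0.02, did not pass. Exons of RFC5 share 10.6% of their bases with genes on the opposite strand.

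The largest change among all 52 genes was in Okazaki fragment processing. DNA2, the nuclease and helicase that trims long flaps and also resects broken or stalled ends, had 19.4, 26.9 and 27.4 CPM in NOZ-R, against 59.0, 71.0 and 62.0 CPM in NOZ. The highest NOZ-R library was well below the lowest NOZ library, and the fitted level in NOZ was 2.61-fold that in NOZ-R. The log2 fold change was -1.39 (SE 0.117, with an adjusted p of 2.64e-07 by edgeR), and 9.91% of all tested genes changed by as much or more in either direction. DNA2 lies on chromosome 10 (68414064 to 68472121, GRCh38), but its value was 0.78 below that chromosome's median and 1.15 below the median of its 20 nearest tested genes.

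FEN1, the main flap endonuclease, had 104.9, 96.03 and 96.2 CPM in NOZ-R and 123.3, 128.3 and 132.5 CPM in NOZ, which put the log2 fold change at -0.37 (SE 0.0617, with an adjusted p of 0.000156 by edgeR). LIG1, the ligase that seals the fragments, had 59.5, 58.6 and 63.7 CPM in NOZ-R and 54.5, 52.5 and 53.2 CPM in NOZ, which put the log2 fold change at 0.18 (SE 0.0659, with an adjusted p of 0.0286 by edgeR). The LIG1 call was lost in 10 of 18 settings, among them leaving out NOZ-R replicate 1 or 3 or NOZ replicate 3, while those of FEN1 and DNA2 held in all 18.

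Among genes that couple the fork to chromatin, 3 were higher (75%) and 1 was lower (25%), beside 30.4% higher and 29.8% lower of all tested genes. UHRF1, which reads hemimethylated DNA behind the fork, had 131.8, 133.8 and 137.1 CPM in NOZ-R and 98.5, 103.9 and 103.0 CPM in NOZ, which put the log2 fold change at 0.40 (SE 0.0567, with an adjusted p of 3.72e-05 by edgeR). The histone chaperone subunits CHAF1A and CHAF1B moved together, with log2 fold changes of 0.33 and 0.36 (adjusted p of 0.000337 and 0.00134 by edgeR). Both calls were lost in the test against a 1.2-fold change. WDHD1, which links the helicase to polymerase alpha, had 38.8, 39.8 and 43.0 CPM in NOZ-R and 51.2, 65.6 and 52.5 CPM in NOZ, which put the log2 fold change at -0.48 (SE 0.0950, with an adjusted p of 0.000635 by edgeR). PRIMPOL, the primase that restarts synthesis past obstacles, had a log2 fold change of 0.26, which missed the threshold (adjusted p of 0.0867 by edgeR).

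Where the genes lie on the chromosomes moved with these changes. The median log2 fold change of tested genes outside the 52 was -0.64 on chromosome 9, -0.60 on 10, -0.44 on X and 0.33 on 6. All 17 lower genes had 20 nearest tested genes with a negative median, beside 69.8% of all lower tested genes, and 14 of the 17 higher genes had neighbours with a positive median, beside 68.7% of all higher tested genes. Over the 52 genes, the rank correlation between a gene's log2 fold change and its neighbour median was 0.761, against 0.376 over 13890 tested genes. These points share libraries and are given as a description, and the tested genes were not matched to the 52 for expression level.

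Many genes of both directions lay close to their neighbours. Within 0.3 of the neighbour median on the log2 scale were 11 of the 17 higher genes, beside 32.7% of all higher tested genes, and 13 of the 17 lower genes, beside 33.7% of all lower tested genes. These shares, and those below, depend on the size of the change, which was smaller in the called genes of the 52. At 0.5 or more were 6 of their 17 higher genes, against 2540 of 4379 higher tested genes. At -0.5 or less were 8 of their 17 lower genes, against 2688 of 4284 lower tested genes. Neighbour medians of the 52 genes left out the 52, and those of all tested genes did not. For 10 of the 17 lower genes the neighbours were at least as low as the gene itself (13% of all lower tested genes), among them ORC5 with -0.91, POLA1 with -0.86, MCM10 with -0.80, MCMBP with -0.62, POLE3 with -0.62 and RFC3 with -0.54. For 0 of the 17 higher genes were the neighbours at least as high (6.89% of all higher tested genes), but several were close: GINS2 at 0.29 had neighbours at 0.28, CDT1 at 0.55 had neighbours at 0.42 and POLE4 at 0.64 had neighbours at 0.46. The lower genes furthest below their neighbours were DNA2 by -1.15, GINS4 by -0.70 and POLA2 by -0.46. The higher genes furthest above theirs were MCM6 by 0.57, MCM3 by 0.48, MCM9 by 0.47 and MCM5 by 0.46. ORC4 and GMNN lay among genes with medians of 0.63 and 0.35 and were not called themselves. The part of position in these results was not tested.

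**Figure D4:**
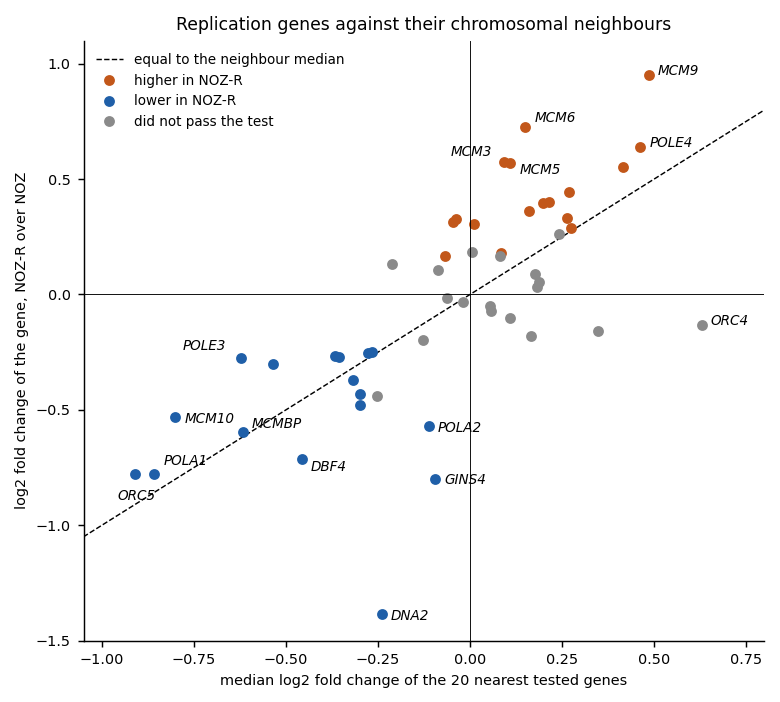
Log2 fold change of each of the 52 genes, NOZ-R over NOZ (vertical axis), against the median log2 fold change of its 20 nearest tested genes (horizontal axis); the dashed line marks equal values and colours give the edgeR call. ORC5 and POLA1 lie near the line at about their neighbours' values of -0.91 and -0.86, whereas DNA2 lies 1.15 below its neighbours and MCM6 lies 0.57 above.

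Base composition also moved with the changes. The median GC content of the transcripts was 51.3% for the 17 higher genes, 43.5% for the 17 lower and 43.1% for the 18 that did not pass. The rank correlation of log2 fold change with GC content was 0.362 over the 52 genes and 0.138 over the tested genes. With a correction for GC content in the fit, 19 of the 52 genes were higher and 15 lower. Of all genes, 5099 were then higher and 4038 lower, against 4379 and 4284 without it. The correction shifted the median log2 fold change of all genes by 0.0543. MCM3, MCM5, MCM6, MCM7, CDC6, CDT1, DBF4, GINS4, POLA1 and DNA2 kept their calls. GINS1, POLE2 and LIG1 were no longer called, and PCNA, ORC2 and PRIMPOL were called higher.

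Other genes of the pathway, from lists outside the 52, also moved both ways. Of 52 such genes, 14 rose (26.9%), 19 fell (36.5%) and 19 stayed uncalled, beside 30.4% higher and 29.8% lower of all tested genes, which is near that share. Among 21 firing and fork factors, 5 were higher (23.8%) and 7 lower (33.3%). The fork protection genes TIPIN, at a log2 fold change of 0.49 (adjusted p of 0.000621 by edgeR), and CLSPN, at 0.38 (adjusted p of 0.0116 by edgeR), although not called in 5 of 18 settings, rose most among the called genes. The topoisomerase TOP2A, at -0.69 (adjusted p of 3.27e-07 by edgeR), and ATAD5, which unloads PCNA, at -0.53 (adjusted p of 0.00214 by edgeR), fell most among the called genes. RNASEH2A, at 0.584 CPM in NOZ-R and 1.06 CPM in NOZ, had a lower log2 fold change of -0.86 that was not called (adjusted p of 0.058 by edgeR).

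Among 12 genes of CDT1 turnover and the S phase kinases, 1 was higher (8.33%) and 5 were lower (41.7%). SKP2, the F-box protein that targets CDT1 and the inhibitor p27 for degradation, fell to 52.4 CPM ± 3.34 in NOZ-R, against 121.8 CPM ± 2.77 in NOZ (SD, n = 3 each). This put the log2 fold change at -1.22 (SE 0.0658, with an adjusted p of 3.12e-09 by edgeR). Cyclin E1, CCNE1, was lower at a log2 fold change of -0.47 (adjusted p of 0.00479 by edgeR), and FBXO31, a further F-box gene, rose by 0.51 (adjusted p of 0.000105 by edgeR). The adaptor gene DTL, which sends CDT1 for degradation at replicating DNA, had a log2 fold change of -0.02 (adjusted p of 0.81 by edgeR).

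Of 19 other E2F targets and regulators, 8 were higher (42.1%) and 7 lower (36.8%). The factors E2F8 and E2F2 rose by 0.94 and 0.77 (adjusted p of 1.97e-06 and 8.7e-05 by edgeR), while HELLS, a chromatin remodeller, and the factor MYBL2 had log2 fold changes of -0.81 and -0.66 (adjusted p of 2.65e-07 and 1.8e-05 by edgeR). E2F1 measured 49.9 CPM ± 3.84 in NOZ-R and 51.2 CPM ± 5.397 in NOZ (SD, n = 3 each). Markers of G2 and mitosis, measured beside these groups, were lower in 9 (64.3%) and higher in 3 (21.4%) of 14 cases, beside 29.8% lower and 30.4% higher of all tested genes. They summed to 2466 to 2547 CPM in NOZ-R and 3188 to 3387 CPM in NOZ. CENPF and KIF11 were at log2 fold changes of -0.97 and -0.93, and CDC20 and BIRC5 at 0.21 each. KIF11, MKI67 and CDK1 of these markers, and HELLS, lie on chromosome 10, where tested genes outside the 52 had a median of -0.60. In NOZ-R and NOZ, in that order, MKI67 measured 371.7 and 663.1 CPM, KIF11 107 and 204.2, and CDK1 84.0 and 126.8. The other lower markers lie elsewhere, CENPF on chromosome 1, with a median of 0.17. The CDC20 and BIRC5 calls failed in 6 of 18 settings each, among them without NOZ-R replicate 1 for CDC20 and without NOZ-R replicate 2 for BIRC5. Their part in the changes of the 52 genes was not tested.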

How the data were processed

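RNA-seq counts of 6 libraries were analysed, 3 of NOZ-R and 3 of NOZ, grouped by their titles. Poly-A RNA was selected, fragmented, copied with random primers and amplified by PCR, per the labels' protocols, which describe no strand-marking step and no molecular identifiers. The authors deposited raw counts per gene and FPKM values for the same 63140 genes; each deposited FPKM value could be rebuilt from its count, the library total and 1 fixed length per gene (largest relative spread of that length 9.21e-15). The submitters' processing notes name fastp 0.22.0 and build GRCh38. Which aligner, counter, strand setting and annotation were used is not given in the sources used here.

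Genes were filtered with filterByExpr, scaled with TMM and tested with edgeR 4.0.16 (glmQLFit and glmQLFTest, R 4.3.3) with Benjamini-Hochberg adjustment at 0.05 over all 14386 tested genes. The standard error is the log2 fold change divided by the root of F, and 95% intervals use the fitted degrees of freedom. Subunit shares and sums were compared by exact two-sided permutation over libraries. Positions, exon overlaps and GC content came from GENCODE 29 (GRCh38), matched for 13912 tested genes by symbol, older symbol or Ensembl identifier. The gene length implied by FPKM exceeds the GENCODE exon bases by over 1.5 times for 5 of the 52 genes, so levels between genes are approximate. Chi-square per gene between replicates was 2.16 to 11.2, above the value near 1 expected of sampling noise, so no pair differed by sampling noise alone. All libraries were kept. The test was checked on simulated counts in which a small set of genes was changed, equally up and down. That check does not cover data in which 60.2% of tested genes are called.

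The 52 genes, the lists and the rules were chosen with earlier results of these data known. Named with values per library are called genes with an absolute log2 fold change of at least 0.5 and the largest called increase and decrease of each complex, with up to 2 increases and 2 decreases from each other list. CDC6, PCNA, FEN1, DTL, E2F1 and RNASEH2A were added after their values were seen. Alternatives were other scalings (DESeq2 size factors, upper quartile, library size), other filters, the Wald test of DESeq2 1.42.0, limma 3.58.1 on log2 FPKM, a replicate block, an adjusted p of 0.01, testing beyond a 1.2-fold change, GC correction, chromosome medians and leaving out each library. The median of the 20 nearest genes was added after seeing the data. PCR copies cannot be told from separate molecules.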

Additional observations from a re-analysis of the deposited data

How the results depend on the processing

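Of the 34 called genes among the 52, 19 kept their call and direction in all 18 alternative settings and 0 reversed in any of these. MCM4, ORC6, POLD3, POLE3, RFC3, CHAF1A and CHAF1B lost their calls in 1 setting, the test against a 1.2-fold change. The higher count of 17 was 11 with limma on log2(FPKM + 1) and 11 with log2(FPKM + 0.1), which hold no composition correction and gave 24 lower at both pseudocounts, against 17 (3219 higher and 5298 lower of all genes at a pseudocount of 1), and 8 in the test against a 1.2-fold change, where the lower count was 11 and the count of all higher genes 2890. Of the other 52 pathway genes, the higher count of 14 was 9 by library size alone, 7 and 7 with limma at both pseudocounts, where the lower count was 25 in all 3, against 19, and it was 9 at a threshold of 0.01 and 5 in the test against a 1.2-fold change, where the lower count was 10. Leaving out 1 library at a time gave 15 to 18 higher and 16 to 18 lower of the 52, 9 (without NOZ-R replicate 1) to 16 higher and 15 to 19 lower of the others, and 4017 to 4634 higher and 3833 to 4328 lower of all genes. The share of MCM2 in its complex then differed by -0.249 (without NOZ replicate 2) to 0.291 percentage points and was -0.154 without NOZ-R replicate 3.

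Deviations of same-numbered libraries correlated at 0.0682, -0.0224 and -0.0365. These values cannot settle whether the replicate numbers pair the samples, because the deviations also followed GC content, at -0.502 in NOZ replicate 2. With the replicate block, 18 of the 52 were higher and 17 lower, and 4324 and 4180 of all genes, and POLD2 was then called higher. Sign changes among genes that were not called, by library size alone and with limma at pseudocounts 1 and 0.1, were MCM8 at -0.0947, -0.0660 and -0.0855, ORC2 at -0.0760, -0.0676 and -0.0746, CDC45 at -0.0391, -0.0362 and -0.0384, and PCNA at -0.0217, -0.0208 and -0.0209. After GC correction they were ORC4 at 0.0939, CDC7 at 0.0944, PRIM1 at 0.115, PRIM2 at 0.0884 and RFC5 at 0.0254. With 1 library left out, values ran for MCM8 from -0.0135 to 0.14, for POLE from -0.0742 to 0.0152 and for RFC5 from -0.0408 to 0.00593. Called genes whose sign turned after removing the chromosome median were MCM10 at 0.0688, MCMBP at 0.00498, POLE3 at 0.364 and RFC3 at 0.0831. After removing the median of the 20 nearest genes they were MCM10 at 0.269, MCMBP at 0.0205, ORC5 at 0.129, ORC6 at 0.0846, GINS1 at 0.024, POLA1 at 0.0805, POLD3 at 0.0156, POLE2 at 0.104, POLE3 at 0.35 and RFC3 at 0.235. The cause of these differences was not tested. At about 2 CPM (POLD4) depth limits what can be called.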
